A study of Mus musculus with 9 samples.

Results

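The genes described here are the RNA products of the TFEB family, the folliculin axis that controls it, and Gpnmb, a target of the family, in mouse myoblasts that had lost a subunit of respiratory complex III. They were chosen by symbol: the transcription factors Tfeb, Tfe3 and Mitf, folliculin (Flcn) and its partners Fnip1 and Fnip2, the Rag GTPases Rragc and Rragd, and Gpnmb. That is 9 of the 55536 genes in the count table, and all 9 passed the filter on low counts that left 15720 tested genes. The set was put together with the difference between knockout and floxed cells known, the higher level of Gpnmb above all, so that difference is given below as a description, with no p-value for a member.

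Primary myoblasts came from mice with a floxed Uqcrfs1 gene, which encodes the Rieske iron-sulfur protein of complex III. Floxed vehicle cells (uqcrfs1 +/+) received an adenovirus for green fluorescent protein, and knockout cells (uqcrfs1 -/-) received one for Cre recombinase, so genotype and virus cannot be told apart. Cells were seeded 72 h after the virus and, 24 h later, were given DMSO as vehicle or 7.5 µM oxybutynin, a muscarinic receptor antagonist, and were kept so for 5 days. There were 3 libraries each of floxed vehicle, knockout vehicle and knockout oxybutynin cells, and no floxed cells given oxybutynin. Nothing in the labels says that libraries of a group came from separate cultures or animals, so a p-value here reflects how far these libraries scatter, perhaps for technical reasons alone.

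Uqcrfs1 itself was at 79.6 ± 3.67 CPM (counts scaled to library size; mean ± SD, n = 3) in floxed vehicle libraries, against 2.45 ± 0.36 with knockout and vehicle and 2.56 ± 0.44 with knockout and oxybutynin. Library totals ran from 19604971 to 26226949 counts. Knockout vehicle replicate 3 correlated more closely with each oxybutynin library (Pearson r of log2 CPM 0.992 to 0.993) than with the other libraries of its own group (0.986 to 0.990). The 3 groups also differed along GC content, which was taken from the longest transcript of each gene. Across 12976 protein-coding genes, Spearman's rho of log2 fold change with this GC content was 0.54 in knockout against floxed vehicle. It was 0.69 in oxybutynin against knockout vehicle and 0.63 in oxybutynin against floxed vehicle (genes are not independent replicates). The dependence of each library on the GC content and length of the longest transcript is called the trend below. Values from which the trend was taken out are given beside the member values, and its part in any single gene was not tested.

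TFEB, TFE3 and MITF are basic helix-loop-helix leucine zipper factors that bind E-boxes in the promoters of lysosomal and autophagy genes. When amino acids are plentiful, Rag GTPase pairs on the lysosome bring TFEB and TFE3 to the kinase complex mTORC1, which phosphorylates them and keeps them in the cytosol. Folliculin, held by FNIP1 or FNIP2, acts on RagC and RagD and is needed for this step, so loss of folliculin sends the factors to the nucleus. GPNMB is a membrane glycoprotein of lysosomes and melanosomes whose gene is a known target of MITF and TFE3. RNA counts measure neither phosphorylation nor the place of these proteins in the cell.

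Promoter sequences of 300 bases (250 before to 50 after a RefSeq start site, GRCm38.p6) were at hand for all 9 genes, in 14 windows. They were searched on both strands for the E-box CACGTG, for its extended form TCACGTGA, which contains the E-box, and for the M-box TCATGTG bound by MITF. An E-box was found in the windows of Fnip1 and Rragc, beginning 75 and 112 bases before the start site, against 7.15% of all 32851 windows in the table. No window of a member held the extended form or the M-box, which occur in 0.974% and 3.77% of windows. The promoters of Fnip1 and Rragc are shown because they hold the matches (capitals mark the E-box), and that of Gpnmb because its gene differed most between the groups. Each sequence runs 5′ to 3′ on the + strand of GRCm38.
Gpnmb, chr6:49036268-49036567: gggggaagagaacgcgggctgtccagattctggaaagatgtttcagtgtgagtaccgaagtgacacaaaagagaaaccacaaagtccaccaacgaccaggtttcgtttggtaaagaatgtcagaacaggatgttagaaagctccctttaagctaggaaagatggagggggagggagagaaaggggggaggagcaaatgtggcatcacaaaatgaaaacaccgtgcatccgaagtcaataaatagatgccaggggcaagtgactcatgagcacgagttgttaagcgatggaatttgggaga
Rragc, chr4:123917183-123917482: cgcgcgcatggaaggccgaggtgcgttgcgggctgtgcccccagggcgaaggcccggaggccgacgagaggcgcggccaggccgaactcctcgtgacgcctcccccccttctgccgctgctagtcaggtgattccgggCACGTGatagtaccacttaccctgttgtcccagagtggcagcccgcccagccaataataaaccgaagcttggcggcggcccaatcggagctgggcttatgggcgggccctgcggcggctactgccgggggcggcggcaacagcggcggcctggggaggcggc
Fnip1, chr11:54437929-54438228: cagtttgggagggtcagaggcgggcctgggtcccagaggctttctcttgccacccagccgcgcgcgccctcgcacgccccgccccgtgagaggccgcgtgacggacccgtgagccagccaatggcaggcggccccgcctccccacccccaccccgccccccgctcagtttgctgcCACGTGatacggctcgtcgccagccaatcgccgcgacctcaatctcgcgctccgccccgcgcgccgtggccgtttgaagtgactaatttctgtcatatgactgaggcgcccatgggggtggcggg
The window of Gpnmb had a GC content of 47.7%, and those of Rragc and Fnip1 had 70.7% each. A match describes letters only, and a missing match says nothing of sites elsewhere.

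In knockout cells the RNA of all 3 family members was higher than in floxed cells, Gpnmb was higher by 6.51-fold, Flcn, Fnip2 and Rragc were modestly higher, and Fnip1 was lower. By the edgeR quasi-likelihood test with Benjamini-Hochberg adjustment over all genes, 7 of the 9 were called higher (adjusted p under 0.05), 1 lower and 1 (Rragd) not called. These counts describe genes chosen on this same contrast and are no test of the set. In this comparison 29.9% of all tested genes were called higher and 33.4% lower. Group ranges did not overlap for 8 of the 9, against 66.7% of tested genes. The median log2 fold change of the 9 was 0.45, beside -0.01 for all tested genes. Removing the GC and length trend moved the median of all genes to -0.13 and the share of higher genes among those called from 47.2% to 37.8%. The members then stood at 6 called higher and 0 lower, and those that changed are named below.

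Tfeb (ENSMUSG00000023990, chr17:47737030-47792419, + strand, GRCm38) was scarce. It was read at 1.79, 1.76 and 1.69 CPM (35, 41 and 38 counts) in the floxed libraries, 3.17, 3.56 and 3.56 CPM (68, 85 and 88 counts) in those of knockout vehicle, and 3.31, 3.74 and 3.59 CPM (81, 95 and 80 counts) in oxybutynin libraries. Every knockout library lay above every floxed one, and the knockout groups overlapped. The log2 fold change of knockout over floxed was 0.97 ± 0.18 (SE). The longest transcript of Tfeb is the most GC-rich of the set (63.2%, above 99.1% of 12982 protein-coding genes). With the trend removed the log2 fold change of Tfeb was 0.34, or 0.48 above the median of all genes, and Tfeb was no longer called.

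Tfe3 (ENSMUSG00000000134, chrX:7762560-7775202, + strand), the most abundant of the family per length of exon, was at 71.2, 79.7 and 78.5 CPM in floxed libraries, 105.1, 111.2 and 127.6 in knockout vehicle libraries and 141.9, 133.2 and 145.2 with oxybutynin. The 3 groups did not overlap and stood in that order. Its log2 fold change of knockout over floxed was 0.58 ± 0.09, or 0.36 with the trend removed.

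Mitf (ENSMUSG00000035158, chr6:97807052-98021349, + strand), the family's melanocyte and osteoclast factor, was at 7.92, 6.36 and 7.20 CPM in floxed libraries, 9.08, 10.3 and 9.76 in knockout vehicle libraries and 7.59, 8.10 and 7.997 with oxybutynin. Knockout vehicle was the highest group, and the oxybutynin libraries lay among and just above the floxed ones. Its log2 fold change of knockout over floxed was 0.45 ± 0.13. The longest Mitf transcript is GC-poor (43.4%), and with the trend removed the value was 0.94.

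Flcn (ENSMUSG00000032633, chr11:59791408-59810016, - strand) was at 29.2, 29.0 and 29.6 CPM in floxed libraries, 35.96, 34.1 and 43.0 in knockout vehicle libraries and 46.5, 39.3 and 40.4 with oxybutynin. All knockout libraries lay above the floxed ones, with a log2 fold change of 0.37 ± 0.10 between the vehicle groups. Its value without the trend was -0.16, which is 0.03 below the median of all genes, so the direction of Flcn differed between the 2 methods. Flcn was not called once the trend was removed.

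Fnip1 (ENSMUSG00000035992, chr11:54438199-54518235, + strand) was at 56.0, 52.4 and 54.3 CPM in floxed libraries, 30.5, 49.4 and 35.5 in knockout vehicle libraries and 32.8, 28.7 and 32.0 with oxybutynin. The floxed libraries were the highest, and knockout vehicle replicate 2 lay far above the rest of its group. The log2 fold change of knockout over floxed was -0.49 ± 0.13, with -0.71 when knockout vehicle replicate 2 was left out and -0.32 when replicate 1 was. The longest Fnip1 transcript is among the most GC-poor (38.9%, above only 3.5% of genes), and with the trend removed the sign turned, to 0.53. Fnip1 was then called higher.

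Fnip2 (ENSMUSG00000061175, chr3:79455974-79567796, - strand), which can stand in for FNIP1 as the partner of folliculin, was at 21.1, 23.8 and 24.3 CPM in floxed libraries, 32.1, 37.6 and 29.7 in knockout vehicle libraries and 32.2, 35.6 and 32.2 with oxybutynin. Knockout libraries of both treatments lay above the floxed ones. The log2 fold change was 0.52 ± 0.11, and 0.54 with the trend removed.

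Rragc (ENSMUSG00000028646, chr4:123917446-123936997, + strand), which encodes RagC, the usual partner of RagA or RagB, was at 55.2, 55.2 and 50.6 CPM in floxed libraries, 72.8, 72.8 and 60.4 in knockout vehicle libraries and 62.4, 68.6 and 64.6 with oxybutynin. Both knockout groups lay above the floxed group. The log2 fold change of knockout over floxed was 0.35 ± 0.09, and 0.31 with the trend removed. Its exons share 264 of 3341 bases with 4930535I16Rik on the opposite strand, which had 1 count in all 9 libraries together.

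Rragd (ENSMUSG00000028278, chr4:32983037-33022180, + strand), the RagD paralog and itself a known target of TFEB, was at 45.3, 46.5 and 50.2 CPM in floxed libraries, 42.7, 46.1 and 33.8 in knockout vehicle libraries and 31.1, 28.1 and 31.3 with oxybutynin. The vehicle groups overlapped, and the oxybutynin libraries were the lowest of all. The log2 fold change between the vehicle groups was -0.21 ± 0.11 and was not called. It was called without knockout vehicle replicate 2, at -0.30. With the trend removed it was -0.06, or 0.07 above the median of all genes, and was not called.

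Gpnmb (ENSMUSG00000029816, chr6:49036546-49070929, + strand) was at 38.8, 39.5 and 35.8 CPM (759, 919 and 805 counts) in floxed libraries, 233.4, 252.9 and 256.4 CPM (5010, 6045 and 6333 counts) in knockout vehicle libraries, and 285.0, 280.2 and 291.0 CPM (6982, 7123 and 6478 counts) with oxybutynin. No group overlapped another. The log2 fold change of knockout over floxed was 2.703 ± 0.08, larger than that of 99.03% of tested genes. It was 2.46 with the trend removed and 2.66 to 2.78 when any 1 library was left out.

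**Figure D1:**
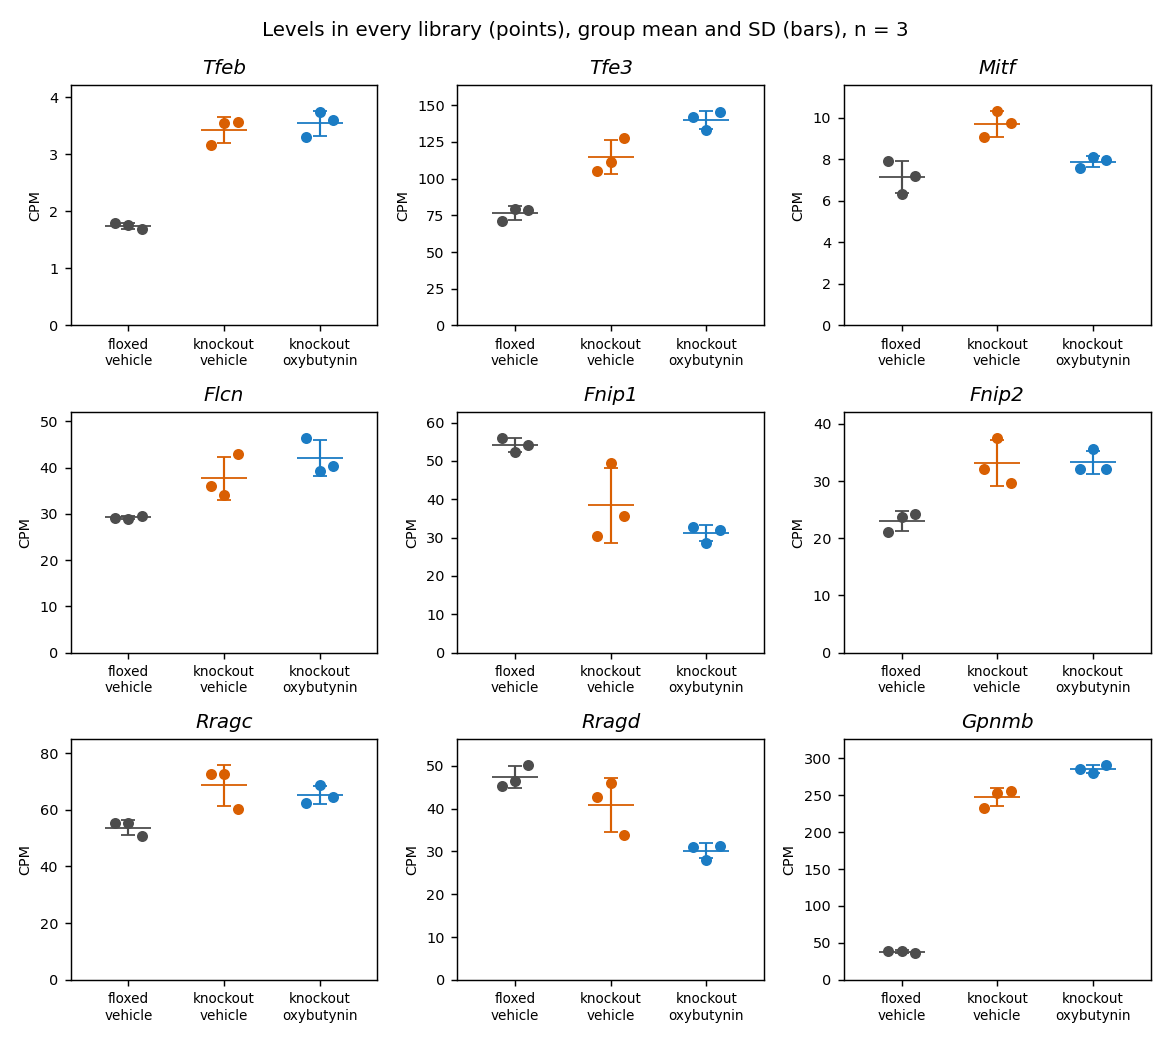
CPM of the 9 genes in every library (points) with the group mean and SD (bars, n = 3), each panel with a linear axis from 0. Gpnmb separates the knockout libraries (233.4 to 291.0 CPM) from the floxed ones (35.8 to 39.5 CPM), Tfe3 stands in 3 separate steps, and Rragd is lowest with oxybutynin (28.1 to 31.3 CPM).

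Levels of different genes were compared as CPM per kb of merged exons. In floxed vehicle libraries Rragc was highest at 16.1 ± 0.79 (SD, n = 3), followed by Rragd at 9.15 ± 0.49, Tfe3 at 8.26 ± 0.49, Fnip1 at 7.62 ± 0.25, Flcn at 6.77 ± 0.07, Gpnmb at 5.83 ± 0.30, Fnip2 at 2.75 ± 0.21, Mitf at 1.16 ± 0.13 and Tfeb at 0.308 ± 0.009. The ranges of mean ± SD overlapped for Rragd and Tfe3, and for Tfe3 and Fnip1. In knockout vehicle libraries Gpnmb led at 38.0 ± 1.91, ahead of Rragc at 20.5 ± 2.15 and Tfe3 at 12.4 ± 1.25. Flcn (8.72 ± 1.09), Rragd (7.90 ± 1.22), Fnip1 (5.40 ± 1.37) and Fnip2 (3.96 ± 0.48) followed. The range of mean ± SD of each of these overlapped that of the next. Mitf (1.57 ± 0.10) and Tfeb (0.605 ± 0.040) remained the last. With oxybutynin the order was as in knockout vehicle, from Gpnmb at 43.8 ± 0.83 to Tfeb at 0.625 ± 0.039. Only Fnip1 (4.38 ± 0.30) and Fnip2 (3.98 ± 0.24) then had overlapping ranges of mean ± SD. Dividing by the longest transcript instead placed Tfe3 (12.1) and Gpnmb (10.3) above Rragd (9.36) in floxed cells. With oxybutynin it put Tfe3 (22.14) just above Rragc (22.10), so the order of these genes depended on the length used.

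Oxybutynin added to knockout cells went with slightly higher Tfe3 and Gpnmb and slightly lower Rragd and Mitf, none of which passed the test. In each of these 4 the oxybutynin libraries did not overlap the knockout vehicle ones, 4 of 9 against 22.1% of tested genes. By the edgeR quasi-likelihood test none of the 9 was called, and 5 had an unadjusted p under 0.05, as did 26% of all tested genes. With the trend removed these were 3 of 9 and 13.6%. Calls were almost absent everywhere in this comparison: 0.00636% of tested genes were called higher and 0.00636% lower, which is 1 gene each way.

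Rragd had the smallest p of the 9, with a log2 fold change of -0.44 ± 0.11 (SE; 95% interval -0.67 to -0.21) and an edgeR adjusted p of 0.0651. It was lower in 3 of 3 oxybutynin libraries than in any knockout vehicle library. Tfe3 followed at 0.29 ± 0.09 (0.11 to 0.47; edgeR adjusted p = 0.0834), higher in 3 of 3. Gpnmb differed by 0.20 ± 0.08 (0.05 to 0.36; edgeR adjusted p = 0.12), also higher in 3 of 3. Mitf differed by -0.30 ± 0.12 (-0.56 to -0.04; edgeR adjusted p = 0.146), lower in 3 of 3.

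Fnip1 differed by -0.30 ± 0.13 (-0.58 to -0.03; edgeR adjusted p = 0.163), with groups that overlapped through knockout vehicle replicate 1. The intervals of the other members held 0. They were -0.30 to 0.40 for Tfeb, -0.06 to 0.37 for Flcn, -0.21 to 0.23 for Fnip2 and -0.26 to 0.12 for Rragc, so a change as large as that of Rragd (-0.44) lay outside each of them.

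Which members were called depended on the method and on 1 library. DESeq2 called 2, Tfe3 (adjusted p = 0.0358) and Rragd (0.00899), and edgeR with no filter on low counts also called 2, while limma-trend called 0. Of all genes, DESeq2 called 1157 of the 9469 to which it gave an adjusted p. The fit with no filter called 3.65% of 30103 genes, and limma-trend called 0.0127% of 15720. Without knockout vehicle replicate 3, the library that lay nearest to the oxybutynin group, edgeR called 4: Tfe3 at 0.37 (adjusted p = 0.00518), Flcn at 0.26 (0.0433), Gpnmb at 0.23 (0.0243) and Rragd at -0.56 (0.00225). In that fit 4188 of 16097 tested genes (26%) were called, against 2 of 15720 with every library in. With the trend removed none of the 9 was called, Rragd stood at -0.29, Tfe3 at 0.28, Gpnmb at 0.22, Mitf at -0.10 and Fnip1 at -0.04, and Tfeb turned from 0.05 to -0.20.

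Against floxed vehicle, knockout oxybutynin libraries showed 6 of the 9 called higher and 2 lower, with 8 of 9 not overlapping. Over all tested genes 35.1% were called higher, 36.9% lower, and 78.9% did not overlap. This comparison shares its libraries with the other 2, so its values are only set beside theirs. Gpnmb was 7.51-fold higher (log2 2.91 ± 0.08), beside 2.703 ± 0.08 in knockout vehicle. Tfe3 was at 0.87 ± 0.09 beside 0.58, Tfeb at 1.02 ± 0.18 beside 0.97, Flcn at 0.52 ± 0.10 beside 0.37, Fnip2 at 0.53 ± 0.11 beside 0.52 and Rragc at 0.28 ± 0.09 beside 0.35. Rragc lost its call without floxed vehicle replicate 3 (0.24, adjusted p = 0.0616 by edgeR). Rragd was at -0.65 ± 0.11 beside -0.21 and Fnip1 at -0.80 ± 0.13 beside -0.49, and both were called lower. Mitf, at 0.14 ± 0.13 beside 0.45, was not called. Removing the trend took the share of higher genes among all called from 48.7% to 38.5%. Fnip1 then turned to 0.48, Flcn to -0.14 (0.01 below a median of all genes of -0.13), Tfeb was no longer called at 0.15, and Mitf was called at 0.84. In that fit Fnip1 was called higher and Flcn was not called, while Rragd remained called lower at -0.35.

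**Figure D2:**
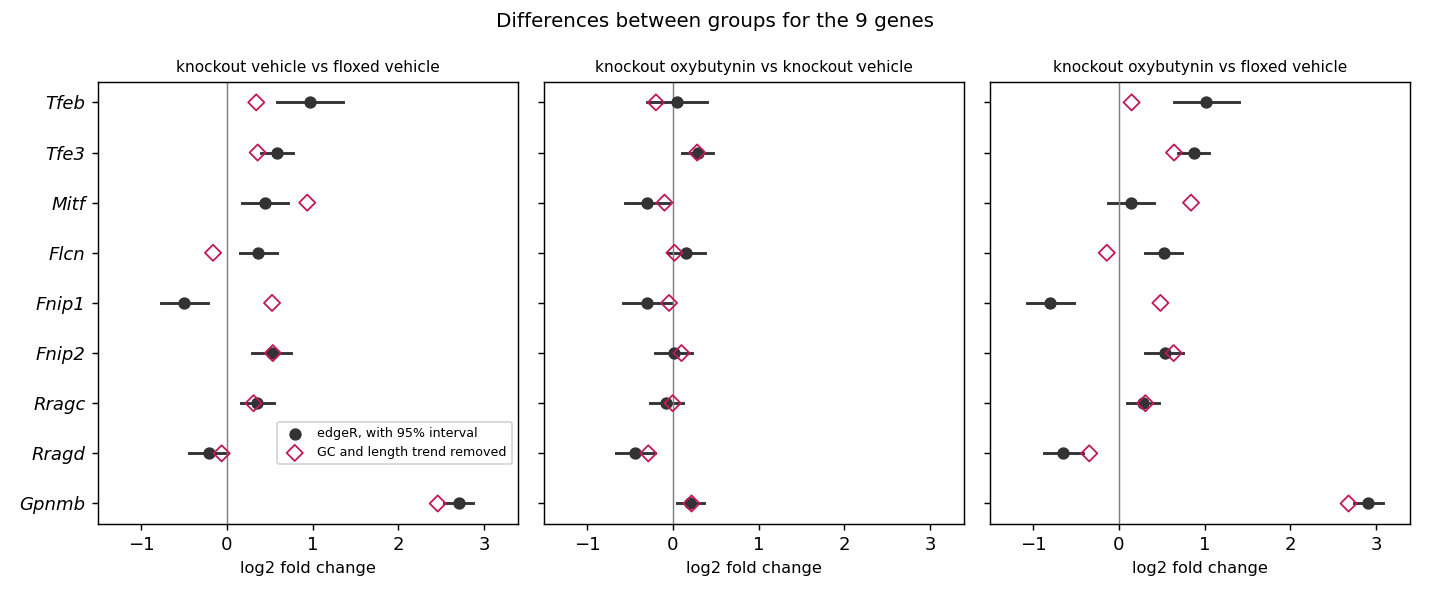
Log2 fold changes of the 9 genes in the 3 comparisons, from edgeR with 95% intervals (filled points, bars) and with each library's GC and length trend removed (open diamonds). Gpnmb stays above 2.4 in both comparisons with floxed cells by either method, while Fnip1 changes sign (-0.49 to 0.53 and -0.80 to 0.48) and Flcn moves from above to below 0.

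Paralogs were compared as a ratio within each library, which library scaling cannot move. The log2 ratio of Rragd to Rragc counts was -0.28, -0.25 and -0.01 in floxed libraries, -0.77, -0.66 and -0.83 in knockout vehicle libraries, and -1.004, -1.29 and -1.04 in oxybutynin libraries. The 3 groups stood apart without overlap, at means of -0.18 ± 0.15, -0.75 ± 0.09 and -1.11 ± 0.15 (SD, n = 3). They did so too with the GC and length trend removed, at -0.34 ± 0.14, -0.71 ± 0.05 and -0.995 ± 0.15. Rragd was below Rragc already in every floxed library. Its share of the pair was thus smaller in knockout than in floxed cells and smaller still with oxybutynin, although Rragd alone was not called between the vehicle groups.

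Other paralog ratios changed when the GC and length trend was removed. The log2 ratio of Fnip2 to Fnip1 averaged -1.24 ± 0.15 for floxed cells, -0.19 ± 0.24 for knockout vehicle and 0.10 ± 0.19 for oxybutynin. With the trend removed these became -0.50 ± 0.14, -0.49 ± 0.11 and -0.34 ± 0.15, and the groups overlapped. The ratio of Mitf to Tfeb went from 2.03 ± 0.16 to 1.504 ± 0.05 and 1.16 ± 0.04 as counted, but from 1.10 ± 0.18 to 1.70 ± 0.33 and 1.80 ± 0.15 with the trend removed, so its direction turned. The ratio of Tfe3 to Tfeb was 5.45 ± 0.12, 5.06 ± 0.10 and 5.30 ± 0.14 as counted, and 5.06 ± 0.11, 5.07 ± 0.31 and 5.55 ± 0.20 with the trend removed.

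**Figure D3:**
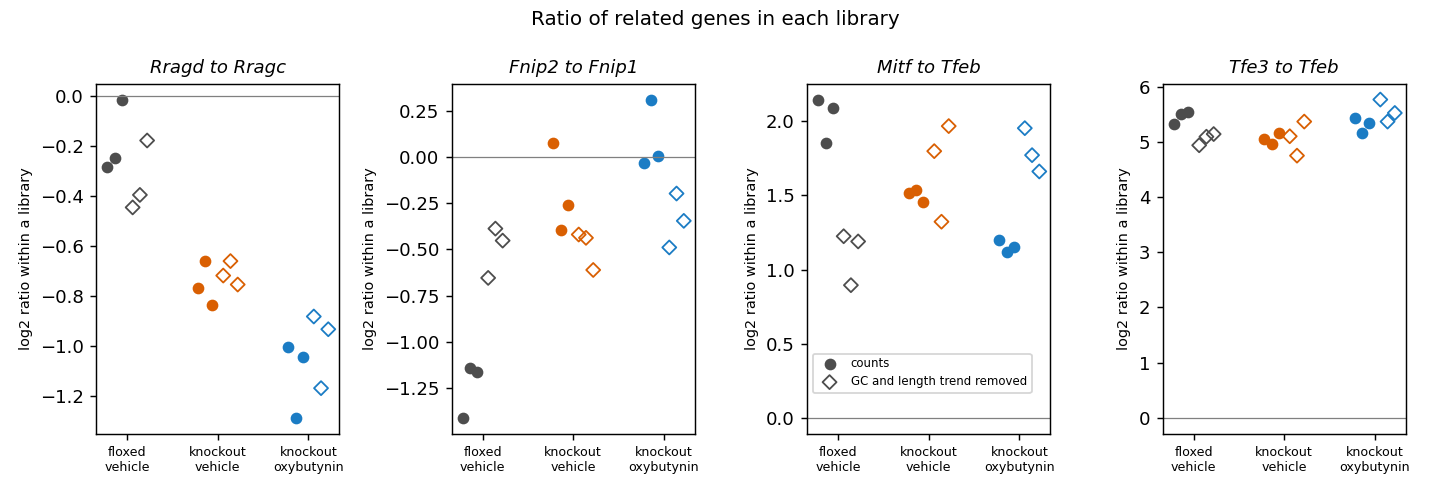
Log2 ratio of counts of related genes in each of the 9 libraries, as counted (filled) and with the GC and length trend removed (open). The Rragd to Rragc ratio steps down over the 3 groups either way, from a mean of -0.18 to -1.11 as counted, whereas the Fnip2 to Fnip1 groups overlap once the trend is removed and the Mitf to Tfeb ratio turns direction.

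Across the 9 libraries Tfeb had the pattern closest to Gpnmb among the members (Pearson r of log2 CPM 0.993), then Tfe3 (0.941), Fnip2 (0.916), Flcn (0.879), Rragc (0.836) and Mitf (0.640), with Fnip1 (-0.840) and Rragd (-0.735) running opposite. These values describe 9 libraries in 3 groups and carry the group differences already given. Among 8962 genes averaging 10 CPM or more, those most like Gpnmb were Mcam (0.9994), Grb10 (0.9991), Fbln5 (0.9989), Timp2 (0.9987) and Scpep1 (0.9987). Mean levels of Mcam, a cell adhesion molecule, were 16.9, 36.8 and 39.5 CPM in floxed, knockout vehicle and oxybutynin libraries. Grb10, an adaptor of insulin signalling and a substrate of mTORC1, stood at 57.1, 171.8 and 186.0 CPM in that order. For Timp2, an inhibitor of metalloproteinases, the means were 573.4, 1111 and 1171 CPM, and for Fbln5, an elastic fibre protein, 3.18, 20.3 and 21.6 CPM. Scpep1, a lysosomal carboxypeptidase that is also on the list of family targets below, was at 39.5, 137.2 and 143.9 CPM. The most similar genes to the other members were Slc7a1 for Tfeb (0.9956), Dctn5 for Tfe3 (0.9951), Gpkow for Mitf (0.9478), Pgls for Flcn (0.9958), Slc4a7 for Fnip1 (0.9964), Pi4ka for Fnip2 (0.9762), Pcyt1a for Rragc (0.9892) and Acp1 for Rragd (0.9912). Gpkow, like Mitf, had its highest mean in knockout vehicle libraries (39.2, 47.2 and 43.2 CPM in the order above).

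The surrounding pathway was taken from lists of genes by role, and counts below are genes called in knockout against floxed vehicle, to be read against the 29.9% and 33.4% given above. Upstream on the lysosome, the Rag and Ragulator scaffold had 5 of 9 tested genes higher and 2 lower (median log2 fold change 0.33). Rraga, which encodes RagA, was at 0.46 ± 0.09, and Rragb, its paralog, at -0.61 ± 0.22. Borcs6 was at 0.68 ± 0.20, with overlapping groups, and the Ragulator subunit Lamtor2 at 0.50 ± 0.17. Once the trend was removed 2 were higher and none was lower, and Borcs6 stood at 0.05 and Lamtor2 at 0.00.

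The GATOR complexes, KICSTOR and amino acid sensors, which set the Rag state, had 8 of 17 higher and 5 lower (median 0.18). Castor1, the arginine sensor, rose from 1.24 ± 0.32 to 4.88 ± 0.76 CPM (log2 1.96 ± 0.22). Sesn3, of the leucine-sensing sestrin family, fell from 127.7 ± 7.24 to 55.0 ± 6.20 CPM (log2 -1.22 ± 0.09), and Bmt2, the S-adenosylmethionine sensor, was at -1.21 ± 0.11. All 3 were called in the same direction with the trend removed, at 1.37, -0.69 and -0.21. Bmt2 then lay only 0.075 below the median of all genes. For mTORC1 and its TSC and Rheb input, 7 of 12 were higher and 1 lower (median 0.22). The lower one was Deptor, an mTOR inhibitor, at -0.91 ± 0.09, while Tsc2 stood at 0.56 ± 0.09. Ddit4, a stress-induced mTORC1 inhibitor, stood at 0.51 ± 0.15 with overlapping groups and turned to -0.10 with the trend removed. The list then had 3 higher and 4 lower.

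Of 16 kinases, phosphatases and binders that act on TFEB, 6 were higher and 8 lower (median -0.24). Rcan2, a calcineurin regulator, rose from 2.83 ± 0.37 to 11.5 ± 1.3 CPM (log2 2.02 ± 0.16). Xpo1, the exportin that carries TFEB out of the nucleus, fell from 303.7 ± 6.84 to 102.6 ± 18.8 CPM (log2 -1.57 ± 0.12), and Prkaa1, an AMPK catalytic subunit, fell from 128.0 ± 3.78 to 63.9 ± 6.30 CPM (log2 -1.002 ± 0.09). These 3 were called the same way with the trend removed, at 2.08, -0.70 and -0.18, although Prkaa1 then lay only 0.05 below the median of all genes. Of the called genes on this list, Ppp3r1, Rcan1, Gsk3a and Stub1 took the opposite sign, and among these only Stub1 (-0.30) was then called. Among the nearest helix-loop-helix relatives 5 of 7 were higher and none lower (median 0.28), led by Usf2 at 0.55 ± 0.10, but with the trend removed none was higher and 3 were lower. Tfec, the remaining family gene, was at or below 4 counts in every library and was not tested.

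Downstream, the lysosomal genes of the CLEAR network, the set of promoters bound by TFEB, had 23 of 24 higher and none lower, with a median of 0.83. Hexa, which encodes a lysosomal glycosidase subunit, rose from 14.2 ± 0.75 to 75.3 ± 9.74 CPM (log2 2.41 ± 0.10), and the carboxypeptidase gene Scpep1 rose from 39.5 ± 1.38 to 137.2 ± 6.25 CPM (log2 1.796 ± 0.08). Slc36a1, a lysosomal amino acid transporter, was the 1 gene not called, at 0.18 ± 0.11. With the trend removed 19 were higher and none lower (median 0.47). Ctsd (-0.03), Gusb (-0.02) and Cd63 (-0.01) then had the opposite sign but were not called. They lay 0.11, 0.12 and 0.13 above the median of all genes in that fit. Slc36a1, also uncalled, turned to -0.17. An E-box lay in the promoter window of 12 of the 20 of these genes with a window, against 8.09% of 27025 genes. The list holds genes whose promoters are bound by a factor that binds E-boxes. This share therefore describes how the list was made and is no result of these libraries.

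Subunits of the v-ATPase, the proton pump that acidifies lysosomes, had 12 of 17 tested genes higher and none lower (median 0.75), with Atp6v0e2 at 1.02 ± 0.18, Atp6v0b at 1.01 ± 0.12 and Atp6ap1 at 0.87 ± 0.08. Without the trend 16 were higher and 1 lower. Autophagy targets were more divided, with 10 of 19 higher and 3 lower (median 0.45). Sqstm1, the autophagy receptor p62, rose from 364.2 ± 7.98 to 1039 ± 142 CPM (log2 1.51 ± 0.10) and Gabarapl1 was at 0.90 ± 0.10. Ppargc1a, the coactivator of mitochondrial genes that is also a target of TFEB, fell from 46.8 ± 2.10 to 19.6 ± 1.42 CPM (log2 -1.25 ± 0.10), and Hif1a and Vps35 were the other lower genes. Ppargc1a remained called lower with the trend removed, at -0.47, while Vps35 took the opposite sign.

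Around GPNMB itself, 2 of 5 genes were higher and 2 lower. Adam10, a protease that sheds its outer part, was at -1.10 ± 0.08, and Adam17 at -0.58 ± 0.10. Sdc4, a syndecan that binds it, was at 0.43 ± 0.07. Cd44, a proposed receptor, stood at 1372 ± 25.4 and 1288 ± 192 CPM in the vehicle groups and was not called. Pmel, its closest homolog, was scarce at 0.247 ± 0.098 and 0.537 ± 0.114 CPM, and its call was lost with the trend removed. In that fit Cd44 was called higher at 0.31, while Adam10 (-0.49), Adam17 (-0.32) and Sdc4 (0.17) kept their calls.

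With oxybutynin, none of the 126 tested genes of the 9 pathway lists was called by edgeR, and 57 had an unadjusted p under 0.05, beside the 26% of all tested genes given above. With the trend removed 26 had such a p, beside 13.6%. DESeq2, which was fitted to 128 genes of the lists, called 3 higher and 14 lower of these, and 190 higher and 967 lower of the 9469 genes to which it gave an adjusted p. The limma-trend fit called none of the 126. List medians against knockout vehicle were largest for the lysosomal genes (0.19), mTORC1 (0.17) and, downward, the regulators of TFEB (-0.17) and the Gpnmb relatives (-0.23), beside 0.00 for all genes. These were, without the trend, 0.07, 0.08, -0.05 and -0.04. Without knockout vehicle replicate 3, edgeR called 61 of the 126, beside 4188 of all 16097 genes tested in that fit (1873 higher and 2315 lower), and 12 of the 24 lysosomal genes were higher and 1 lower.

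**Figure D4:**
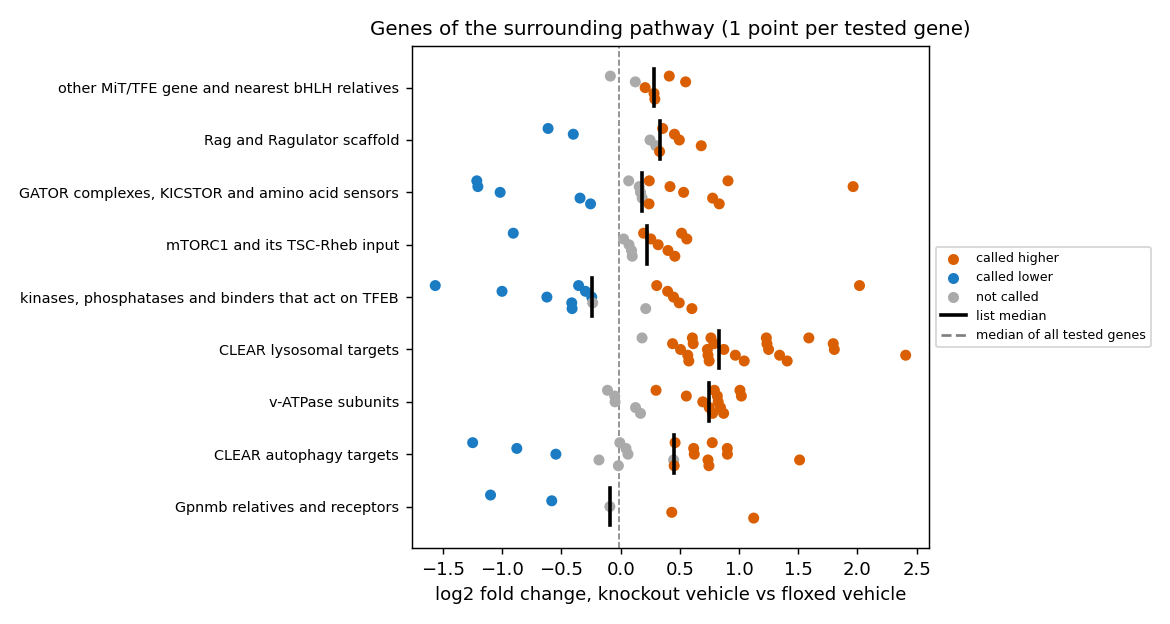
Log2 fold change of knockout over floxed vehicle for each tested gene of the 9 pathway lists (points, coloured by call), with the list median (black bar) and the median of all tested genes (dashed). All but 1 of the 24 lysosomal genes were called higher (median 0.83), whereas the regulators of TFEB lie on both sides (6 higher, 8 lower).

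Since Gpnmb and Mitf are also high in macrophages, osteoclasts and melanocytes, markers of these and other cells were read in the same libraries. In bulk RNA, fewer cells of a type and less RNA per cell cannot be told apart. Myoblast markers summed to 2703 to 2825 CPM in floxed libraries, 2664 to 3528 in knockout vehicle libraries and 3431 to 3717 in oxybutynin libraries, with Chodl at 0 in every library and Msc at 0 in 2 of the groups. Most of this sum was Myod1 and Des. Of the 7 myoblast markers tested, 2 were called higher and 3 lower between the vehicle groups. The lower ones were Heyl, a Notch target, from 2.23 to 0.223 CPM (log2 -3.27), the cadherin gene Cdh15 from 190.0 to 103.3 CPM (-0.88, and -1.49 with the trend removed) and Myf5 (-0.39). Pax7 and Des, the higher ones, and Myf5 took the opposite sign with the trend removed. Des was then called lower (-0.165), as were Heyl, Cdh15, Itga7 (-0.715) and Myod1, which turned from 0.22 to -0.385. Neither Pax7 (-0.10) nor Myf5 (0.19) was called in that fit. Melanocyte markers summed to at most 0.898 CPM in any library, with all 7 under 1 CPM and Tyr and Dct at 0 throughout. Osteoclast markers summed to at most 2.04 CPM, with all 7 under 1 CPM and Dcstamp at 0. Leukocyte markers summed to 10.6 to 11.3 CPM in floxed libraries, 16.9 to 20.7 in knockout vehicle libraries and 19.9 to 22 with oxybutynin, and 7, 7 and 8 of the 10 were under 1 CPM. Most of that sum was Cd68, a lysosomal membrane protein, at 4.74 ± 0.53, 10.8 ± 0.91 and 12.0 ± 0.51 CPM, and Lyz2, at 3.52 ± 0.62, 4.94 ± 0.62 and 5.93 ± 0.79 CPM. The leukocyte sum moved with Gpnmb, and its part in the result was not tested. Schwann cell markers went the other way, from 51.1 to 59.8 CPM in floxed libraries to 24.4 to 26.3 in knockout vehicle libraries and 23.9 to 25.4 with oxybutynin, almost all of it Erbb3. Fibroblast, endothelial and adipocyte markers each summed to at most 4.31 CPM.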

How the data were processed

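RNA-seq counts per gene of 9 primary mouse myoblast libraries (3 groups of 3) were used. The deposited values are whole-number counts, raw and not normalized. Per the labels' protocols, Trizol RNA and a directional NEBNext kit were used. The submitters' processing notes name STAR 2.7.0e, Trim Galore 0.6.0, FastQC, cutadapt and DESeq2 1.26.0, and the builds mm10 and GRCm38. The read counter, strand setting and annotation release, not given in the sources used here, decide how reads of overlapping genes were split.

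The members and lists were chosen with earlier results of these data known. Counts were fitted with edgeR 4.0.16 (R 4.3.3): filterByExpr (15720 genes), TMM scaling, 1 quasi-likelihood model of all 9 libraries, and Benjamini-Hochberg adjustment over all tested genes, with calls at an adjusted p under 0.05. The code was tested on simulated data. CPM are TMM-scaled. Library totals of 19604971 to 26226949 counts gave Tfeb 35 to 95 counts a library, so counting error is largest there. Loci, exon lengths and GC content came from GENCODE M21 (GRCm38), promoters from RefSeq (GRCm38.p6). The GC and length trend of each library was a spline (4 degrees of freedom) on log2 CPM, followed by limma-trend (limma 3.58.1). Replicates were numbered in accession order and carry no pairing.

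Named are the 9 members, Uqcrfs1, up to 3 called genes of each list with the largest change, members of short lists, and the genes most like each member by Pearson correlation (log2 CPM, prior count 2, mean of at least 10 CPM). Genes such as Slc36a1, Hif1a, Vps35, Ctsd, Gusb, Cd63, Ppp3r1, Rcan1, Gsk3a, Stub1, Heyl, Cdh15, Cd68, Lyz2 and Erbb3 were named after their values were seen, and 1 gene that the rule names is not reported here. In all, 20 alternatives were run, DESeq2 1.42.0 among them. Protein sequences of the paralogs were not analysed here. Outliers were not looked for, since every group holds 3 libraries.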

Additional observations from a re-analysis of the deposited data

How the results depend on the processing

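Over the 20 alternatives (other scalings, filters, tools and thresholds, removal of the GC and length trend, and leaving out each library), the number of members called ran from 6 to 9 for knockout against floxed vehicle and from 7 to 8 for oxybutynin against floxed vehicle. Leaving out 1 library gave 8 to 9 and 7 to 8. In the main fit 63.3% and 71.9% of all tested genes were called in these comparisons, and 60.7% and 63.1% with the trend removed. For oxybutynin against knockout vehicle, 0 members were called, and DESeq2 and the absence of a low-count filter each gave 2. Leaving out 1 library gave 0 to 4, the 4 without knockout vehicle replicate 3. Of all 15720 tested genes, 2 were called in that comparison. DESeq2 called 1157 of the 9469 genes to which it gave an adjusted p, and the fit with no filter called 1099 of 30103. Library totals as the only scaling gave 158 (10 higher and 148 lower, against 1 each way). There were 63 without knockout vehicle replicate 2 and 4188 of 16097 without replicate 3.

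The sign of a called member turned only with the GC and length trend removed: Flcn to -0.16 and Fnip1 to 0.53 against floxed vehicle, and Flcn to -0.14 and Fnip1 to 0.48 with oxybutynin. With the trend removed Fnip1 was called higher in both comparisons, while Flcn was called in neither. The cause of these turns was not tested. Rragd was called between the vehicle groups with protein-coding genes only (-0.27) and without knockout vehicle replicate 2 (-0.30). With the GC and length trend removed it stood at -0.06 and was not called.

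No paired analysis was possible because the labels give no replicate number shared between groups. Tfeb, at 35 to 95 counts a library, is the least precisely measured member.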
